A study of Mus musculus with 2 samples.

Results

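The cells described here are Cd209a-positive type 2 dendritic cells from B16-F10 mouse melanomas grown in Trex1 iKO and Trex1 control mice. The members were chosen by their raw UMIs of 5 genes: a cell was a member where it had at least 2 UMIs of Cd209a (UMIs are molecular tags that mark single RNA molecules), at most 1 UMI of Xcr1 and Clec9a together, and none of Cd3e or Cd79a. Of 22490 kept cells, 312 met the rule, 105 in Trex1 iKO and 207 in Trex1 control. The rule used measured values, so the levels of those genes are given below as description only.

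Both groups were male mice 8 to 12 weeks old, and all carried R26CreERT2 as ki/wt, a Cre recombinase inserted at the Rosa26 locus that tamoxifen activates in any cell type expressing it. Trex1 iKO mice were Trex1 fl/fl. Trex1 control mice carried 1 floxed and 1 wild-type allele, so tamoxifen could delete both alleles in iKO cells and 1 in control cells. Tumours were started on day 0 from 1000 B16-F10 cells, a melanoma line of the C57BL/6 strain, placed in Matrigel in the skin of both legs. All mice received 1 mg tamoxifen on 3 days from day 5, and live CD45-positive cells were sorted from tumours on day 14. Each genotype was 1 pool of 4 samples marked with hashtag antibodies (iKO 1 to 4, control 1 to 4). Genotype and pool cannot be told apart, and the labels do not say whether a hashtagged sample is 1 mouse, so p-values measure only the spread between these samples, which may be technical. The design text gives the question as how the immune response that follows loss of Trex1 acts on the growth of the tumour.

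Type 2 conventional dendritic cells take up antigen in tissue and present it on MHC class II, mainly to CD4 T cells. Cd209a encodes a DC-SIGN family lectin that binds glycans. Clec10a and Mgl2 encode macrophage galactose-type lectins, and Kmo encodes an enzyme of tryptophan breakdown. Trex1 degrades DNA in the cytosol. Where it is lost, such DNA can engage the sensor cGAS, and signalling through STING leads to type I interferon, which in turn induces a broad set of antiviral genes in cells that carry its receptor.

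Before filtering, the samples held 1362 to 6117 barcodes and 17111065 to 96457227 UMIs. Median UMIs per kept cell were 13048 to 14677 across the iKO pool and 6557 to 11931 across the control pool. Members were deep in both pools, with medians of 17134 to 23603 UMIs in iKO and 16117 to 19090 in control. Within the iKO pool, samples 1 and 2 stood apart from samples 3 and 4: they held more kept cells (3869 and 5901 against 1304 and 2457), a smaller share of members, and higher interferon-induced RNA in every gate examined. Results that rest on this split are given with each sample's value. Trex1 had 0 counts in members of all 8 samples, where a count of 0 allows 2.12 to 10.9 CPM (3 counts of the sample's member total; CPM are counts scaled to the same total in every sample), so the genotype could not be checked in these cells. No barcode was shared within a pool, 45 were shared across pools, and 1 member's barcode also occurred in another matrix.

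The name was checked against markers that the rule did not use. With every cell thinned to 5000 UMIs, Clec10a was detected in 56.2% of iKO members and 69.8% of control members, against 1.21% and 2.76% of T cells (Cd3e of at least 2 UMIs) thinned the same way. Mgl2 was detected in 29.5% and 47.5% of members and Kmo in 52.4% and 48.5%, against at most 2.06% of T cells for either gene. Unthinned, Clec10a was found in 77.1% of iKO members, 86.0% of control members, 3.43% of iKO T cells and 5.52% of control T cells, the T cells having median depths of 14686 and 8050.5 UMIs. Pooled by genotype, all 3 markers were found in a larger share of members than of T cells, which should lack them. By sample, Mgl2 was found in 6.67%, 11.5%, 54.5% and 35.7% of thinned members in iKO samples 1 to 4. In control samples it was found in 39.3% to 55.4%.

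Other dendritic markers were present as well. Napsa was found in 97.1% of iKO and 96.5% of control members, and Itgax, which encodes CD11c, in 45.7% and 46.5%. Zbtb46, a transcription factor of conventional dendritic cells, was found in 16.2% and 16.8% of thinned members and in 0% and 0.226% of Vcan-positive monocytes. Flt3, a cytokine receptor of the lineage, was detected in 12.4% and 20.8%. The migratory programme was nearly absent: Fscn1 was found in 1.90% and 1.49% of members, against 96.3% and 98.3% of mature dendritic cells (Ccr7 and Fscn1 of at least 2 UMIs each). Ccr7 was found in 5.71% and 5.94% of members, no more than in T cells.

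Markers of macrophages and monocytes were mixed. Mertk was detected in 0% and 0.495% of thinned members and Adgre1, which encodes F4/80, in 4.76% and 6.93%. Vcan was found in 0.952% and 5.45%, against 83.0% and 85.9% of monocytes, a gate that required it. Ly6c2, a monocyte marker that interferon also raises, was found in 45.7% of iKO and 11.9% of control members. By sample it was found in 66.7%, 69.2%, 18.2% and 38.1% in iKO samples 1 to 4 and in 8.70% to 21.4% in control samples. Fcgr1, the high-affinity IgG receptor often used to mark monocyte-derived cells and also an interferon-induced gene, was detected in 59% and 36.6% of members and in 11.7% and 7.47% of T cells. C1qa was found in 6.67% and 15.8% of members and in a like share of T cells, 9.01% and 14.7%. How many members derive from monocytes was not tested.

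**Figure D1:**
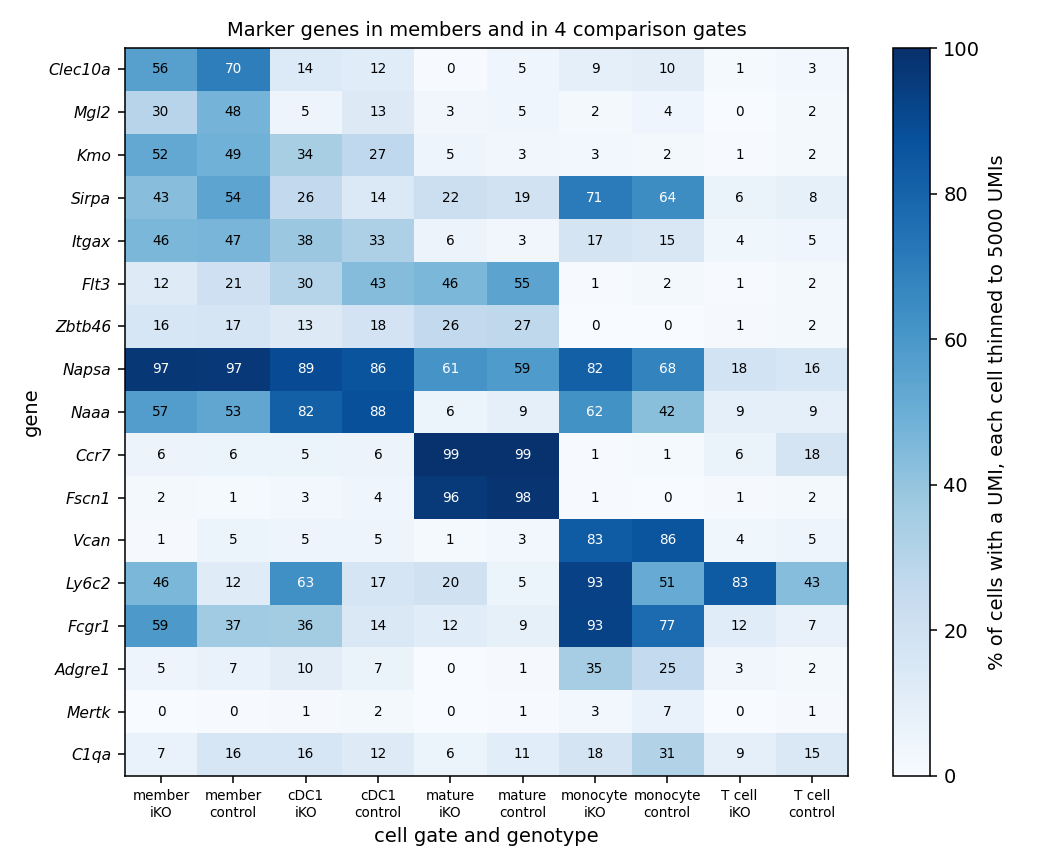
Share of cells with at least 1 UMI of each gene (rows) after thinning each cell to 5000 UMIs, for members, type 1 dendritic cells (cDC1), mature dendritic cells, Vcan-positive monocytes and T cells, by genotype (columns); numbers are percentages. Clec10a, Mgl2, Kmo and Itgax are highest in members, where Ccr7, Fscn1 and Vcan are at or below 5.94%.

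The rule genes describe the selection. The highest Cd209a count of a member was 138 UMIs in iKO, where the median was 6, and 61 UMIs in control, where the median was 8. Cells just outside the threshold, with 1 Cd209a UMI and otherwise within the rule, numbered 172, and 35.5% of them had Clec10a and 34.3% Kmo. Cells just inside, with 2 UMIs, numbered 50, and 70% had Clec10a and 62.0% Kmo. At 4 or more UMIs there were 235 cells, with Clec10a in 86.8% and Kmo in 81.7%. Cd209a was also counted in T cells: 0.764% of iKO and 2.29% of control T cells had a UMI of it, and 0.205% and 0.762% had 2 or more.

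Members made up a smaller mean share of kept cells in Trex1 iKO, a difference that did not pass the test on the counts as deposited. The share was 0.388%, 0.441%, 1.69% and 1.71% in iKO samples 1 to 4 (15, 26, 22 and 42 cells), and 1.47%, 2.74%, 2.32% and 2.67% in control samples 1 to 4 (29, 47, 64 and 67 cells). Exact Clopper-Pearson 95% intervals, which cover counting error only, were 0.217% to 0.639% for iKO 1, the lowest sample, and 2.02% to 3.63% for control 2, the highest. Samples iKO 1 and 2 lay below every control sample, while iKO 3 and 4 lay above control 1. The means were 1.06% ± 0.742 and 2.30% ± 0.587 (SD, n = 4 each; two-sided exact permutation test, p = 0.0857; the smallest p for 4 against 4 is 0.0286).

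The share depended on depth, since the rule counts raw UMIs. After thinning to 5000 UMIs it was 0.334%, 0.237%, 0.858% and 1.19% in iKO and 1.72%, 2.96%, 2.78% and 2.12% in control, so that all iKO samples lay below all control samples. The thinned means were 0.654% ± 0.447 and 2.39% ± 0.579 (SD, n = 4 each; two-sided exact permutation test, p = 0.0286). Cells under 5000 UMIs left the denominator: 3594, 5483, 1165 and 2193 iKO cells and 1571, 1046, 1656 and 1891 control cells remained. The rule was applied again to the thinned counts, and 12, 13, 10 and 26 iKO cells and 27, 31, 46 and 40 control cells met it. The thinned share thus also moves with the level of Cd209a in each cell. Counted only among dendritic cells of 3 gates (members, type 1 and mature), members made up 12.6%, 17.6%, 27.5% and 24.4% of the iKO samples' cells and 34.1%, 42.7%, 37.4% and 39.2% of the control samples' cells (two-sided exact permutation test, p = 0.0286). In that denominator too, no iKO sample reached the lowest control sample. These are shares of sorted cells, which move with the number of every other cell type.

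**Figure D2:**
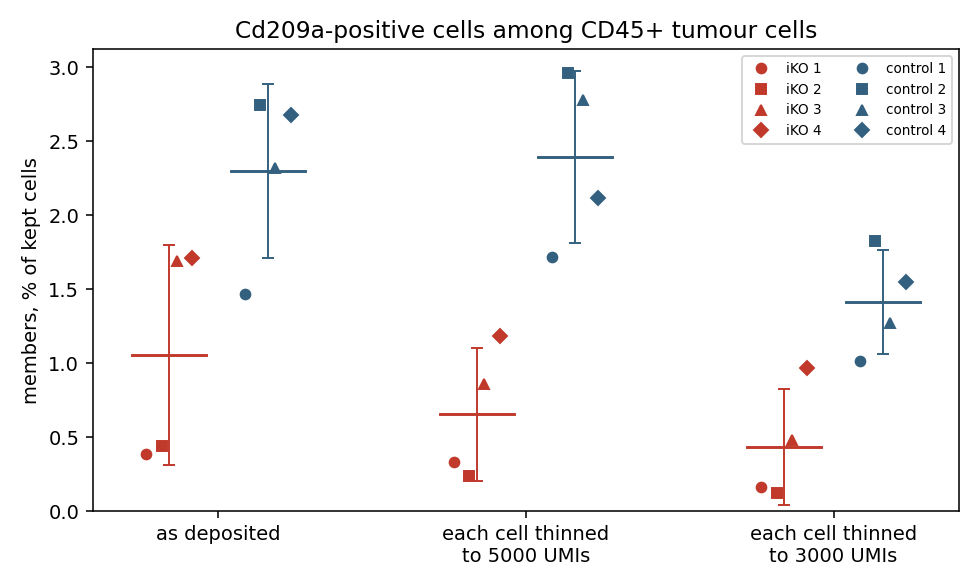
Members as a percentage of kept cells in each hashtagged sample (points; marker shape gives the sample number), with group mean and SD (bars), from the deposited counts and after thinning each cell to 5000 or 3000 UMIs. The groups overlap as deposited, where iKO 3 and 4 lie at 1.69% and 1.71% and control 1 at 1.47%, and do not overlap after thinning.

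To compare expression, UMIs were summed over the members of each sample and tested with edgeR's quasi-likelihood test. Sample iKO 1, with 15 members, fell under the minimum of 20 cells, so the fit held 3 iKO and 4 control samples. Its values are printed beside the others throughout. Of 7232 genes tested outside the rule, 10 passed an adjusted p of 0.05, which is 0.138%: Irf7, Ifi27l2a and Gzmb rose (0.0415%), and Fcgr3, Gda, Mt2, Ccl7, Lyz2, Rps10 and Rpl24 fell (0.0968%). At an unadjusted p under 0.05 there were 658 genes, 9.10% of those tested (4.05% higher and 5.05% lower in iKO). Values of all 8 samples were apart between the genotypes in 5.88% of genes, and those of the 7 fitted samples in 4.07% higher and 5.06% lower in iKO. A fit with a minimum of 10 cells, which admits all 8 samples, called 9 genes, the same set without Lyz2.

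Irf7 and Ifi27l2a, both interferon-induced, rose in iKO members. Irf7 encodes the transcription factor that amplifies type I interferon production and is itself induced by interferon. Its level was 631, 826, 196 and 238 CPM in iKO samples 1 to 4 and 79.1, 46.4, 50.5 and 43.9 CPM in control samples 1 to 4. All iKO samples lay above all control samples, and iKO 1 and 2 were the highest. Irf7 rose by 2.99 ± 0.47 (log2 fold change ± SE, 3 against 4 samples; edgeR, adjusted p = 0.0414). T cells of the same samples (for these levels, those with no Cd79a UMI), in which Irf7 can also be induced, held 1.77 to 2.87 Irf7 UMIs per cell in iKO and 0.288 to 0.403 in control, against 5.00 to 15.2 and 0.925 to 1.45 per member.

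Ifi27l2a, an interferon-induced gene whose product lies in membranes of the cell's interior, was among the most abundant of the group. It was at 3876, 4737, 1908 and 2547 CPM in iKO and 1086, 604, 797 and 730.1 CPM in control, again with no overlap. The log2 fold change was 1.95 ± 0.29 (edgeR, adjusted p = 0.0334). Both calls were lost when iKO 4 or any one control sample was left out, with adjusted p up to 0.240 for Irf7 and 0.180 for Ifi27l2a, while the direction held. Without iKO 2 the Irf7 effect was smaller, 2.03 (edgeR, adjusted p = 0.00332).

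The type I interferon response list had 63 members, of which 59 passed the filter on low counts. All 59 had log2 fold changes above 0 (49.9% of all tested genes did), with a median of 1.26 against 0.00 for all tested genes. The 2 called were Irf7 and Ifi27l2a. In 16 of the 59 the values of all 8 samples did not overlap and were higher in iKO, a pattern seen in 2.68% of all tested genes. The list was known from earlier results on these samples to be higher in iKO leukocytes, so it is no independent evidence of direction. Left out by the filter were Ifit1bl1, Ifi44l, Cmpk2 and Ifi208.

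The size of the response differed among iKO samples. Summed over the type I interferon response list, members held 33603, 30852, 11002 and 13989 CPM in iKO samples 1 to 4 and 11048, 7219, 8321 and 8108 CPM in control samples 1 to 4. Samples iKO 1 and 2 were high, and iKO 3 lay just under control 1. Per cell, the median member held 313, 296, 100.0 and 116 list UMIs per 10000 in iKO and 96.9, 57.3, 74.3 and 74.7 in control. Leaving out iKO 2, the only high sample in the fit, lowered the list's median from 1.26 to 0.53, with 55 of 59 genes above 0. With all 8 samples it was 1.57, over 57 genes.

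Single interferon-induced genes showed the same split. Isg15, a ubiquitin-like modifier, was at 2391, 2009, 341 and 417 CPM in iKO and 431, 122, 244 and 221 CPM in control, so iKO 3 and 4 lay below control 1. Ifit3, which binds viral RNA together with other Ifit proteins, was at 904, 474, 25.0 and 57.2 CPM against 26.4, 15.5, 29.5 and 23.3 CPM. Cxcl10, a chemokine that draws T cells and was listed with the chemokines, was at 2696, 1654, 37.5 and 68.6 CPM against 126, 206, 179 and 85.6 CPM. For Cxcl10 the first 2 iKO samples were far above every control sample and the other 2 below all of them. None of these 3 passed the test (edgeR, adjusted p = 0.338 for Isg15, 0.289 for Ifit3 and 0.585 for Cxcl10). By contrast Isg20, an RNA exonuclease, was at 258, 355, 89.3 and 86.8 CPM against 48.9, 19.6, 20.2 and 28.3 CPM, apart in all samples, though its adjusted p was 0.150 in edgeR's test.

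Type I interferon acts on its target genes through the factor ISGF3, which binds the interferon-stimulated response element. The start regions of the list were searched for a core of that element, GAAA followed by 2 bases of any kind and GAAA again, on both strands, in the 250 bases before and 50 after each annotated start (RefSeq, GRCm38.p6). The files' own build is GRCm39, so these coordinates are not those of the deposited counts. Of the 59 tested genes, 47 had an entry, and 26 of these held the core (55.3%), against 261 of 5879 tested genes with an entry (4.44%) and 3.44% of all 32851 start regions. Shown are the 5 list genes that held it and had no overlap between genotypes, as 60 bases on the gene's strand from 5′ to 3′, with the first match in capitals.
Bst2: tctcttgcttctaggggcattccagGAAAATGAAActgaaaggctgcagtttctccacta
Ifi213: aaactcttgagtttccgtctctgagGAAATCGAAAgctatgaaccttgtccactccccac
Oas1a: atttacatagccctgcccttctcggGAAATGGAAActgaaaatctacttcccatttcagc
Oas1g: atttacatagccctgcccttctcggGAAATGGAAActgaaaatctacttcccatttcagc
Oas3: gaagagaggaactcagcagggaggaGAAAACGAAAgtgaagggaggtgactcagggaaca

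The stretches lie on the minus strand at chr8:71537568-71537627 (Bst2), chr1:173599311-173599370 (Ifi213), chr5:120907511-120907570 (Oas1a), chr5:120887597-120887656 (Oas1g) and chr5:120777700-120777759 (Oas3). The match starts at position -130, -73, -20, -18 and -75 from the start site, in the same order. Oas1a and Oas1g are neighbouring copies with the same 60 bases, and reads of one may have been counted to the other. Bst2 encodes tetherin, which holds budding virus at the cell surface. Its level was 907, 930.3, 438 and 399 CPM in iKO and 356, 171, 307 and 273 CPM in control. Oas3, which makes the messenger that activates RNase L, was at 109, 77.2, 23.2 and 38.1 CPM against 9.41, 8.26, 12.6 and 17.0 CPM. The groups did not overlap for either, and neither passed the test (edgeR, adjusted p = 0.302 for Bst2 and 0.200 for Oas3). Irf7, Ifi44, Isg20, Ms4a4c, Oasl2, Pnpt1 and Xaf1 also had no overlap between genotypes, and their windows held no match to this core. Whether the core goes with a rise in every iKO sample was not tested. A match is a description of the letters, not a bound site.

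Apart from Irf7, listed above, genes of interferon signalling and of nucleic acid sensing were not called. Of 14 tested genes of interferon signalling, none passed the test (edgeR), 6 had log2 fold changes above 0 and the median was -0.05. Ifnar1, a receptor chain, was at 83.5, 52.1, 42.9 and 41.0 CPM in iKO and 79.1, 48.5, 72.4 and 85.6 CPM in control. Usp18, a negative regulator that interferon induces, was at 334, 263, 35.7 and 55.3 CPM against 35.8, 16.5, 28.6 and 24.8 CPM, with iKO 3 level with control 1. None of 15 nucleic acid sensing genes was called by edgeR, with a median of 0.11. Cgas was at 54.4, 39.6, 23.2 and 24.8 CPM against 24.5, 22.7, 14.3 and 16.3 CPM, and Sting1 at 218, 123, 67.9 and 66.7 CPM against 92.2, 92.9, 72.4 and 62.3 CPM. For both, iKO 1 and 2 were the highest samples and iKO 3 and 4 lay within or at the edge of the control range.

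**Figure D3:**
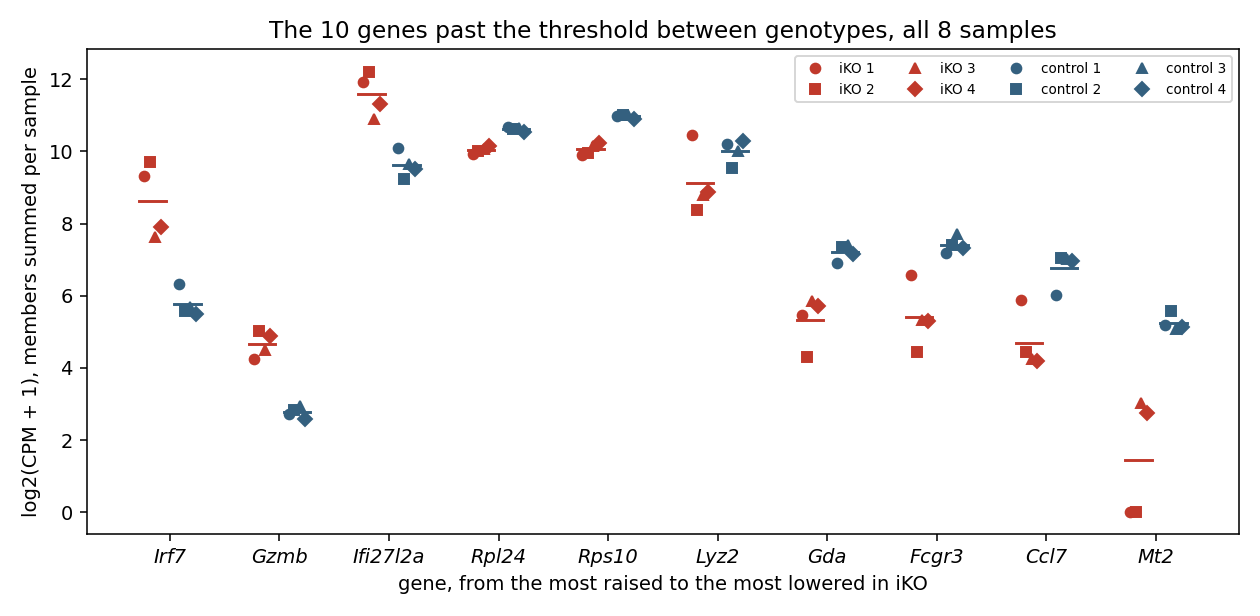
Level of the 10 called genes in members of each sample, as log2(CPM + 1), with marker shape giving the sample number and bars the mean of the plotted values of 4 samples. The pseudocount of 1 is for display only. In Lyz2 alone the groups overlap, since iKO 1 (1408 CPM) lies above all control samples.

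Fcgr3 had, with Rps10, the smallest adjusted p of all genes. Fcgr3 encodes CD16, a low-affinity receptor for IgG. Its level was 94.4, 20.9, 39.3 and 38.1 CPM in iKO samples and 143, 167, 208 and 159.9 CPM in control samples. All iKO samples lay below all control samples, with iKO 1 nearest to them. Fcgr3 fell by 2.33 ± 0.22 (log2 ± SE; edgeR, adjusted p = 0.00246), a 5.02-fold decrease, and by 1.94 with all 8 samples (adjusted p = 0.0444). It was detected in 14.3% of iKO and 35.1% of control members after thinning, and in 7.55% and 10.6% of T cells.

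Fcgr3 levels were set beside those of lymphocytes of the same samples. T cells held 0.413 to 0.638 Fcgr3 UMIs per cell in iKO and 0.345 to 1.08 in control. Members held 0.385 to 1.73 per cell in iKO and 2.62 to 3.86 in control, and members were above T cells of their own sample per cell in all samples but iKO 2, and on the CPM scale in all but iKO 2 and 4. B cells held 0.312 to 0.976 per cell in iKO and 0.246 to 1.62 in control. The call held when any 1 of the 7 samples was left out (adjusted p up to 0.0264). It was lost in members with no UMI of C1qa, C1qb, C1qc, Adgre1 or Mertk, where 2 iKO and 4 control samples had 10 cells and the log2 fold change was -1.67 (edgeR, adjusted p = 0.176). It was also lost in members found after thinning, at -1.08 (edgeR, adjusted p = 0.213). A Cd209a threshold of 1 UMI lost the call too, at -0.86 (edgeR, adjusted p = 0.344). A threshold of 3 UMIs kept the call with 2 iKO and 4 control samples, at -2.35 (edgeR, adjusted p = 0.0134). With a minimum of 10 cells, which gave 4 iKO and 4 control samples, that threshold lost the call, at -1.83 (edgeR, adjusted p = 0.0797).

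The rest of the Fc receptor list did not share the pattern. Of 6 tested genes, Fcgr3 was the only one called, and 2 were above 0. Fcgr2b, the inhibitory receptor, was at 94.4, 81.4, 193 and 124 CPM in iKO and 177, 256, 341 and 269.5 CPM in control, overlapping at iKO 3 and control 1 (log2 fold change -0.98 ± 0.27, edgeR adjusted p = 0.300). Fcgr1 was at 489.9, 373, 100.0 and 119 CPM against 124, 101, 95.1 and 121 CPM. Fcer1g, the signalling chain the activating receptors share, was at 1799 to 2812 CPM in iKO and 2016 to 2311 CPM in control, a log2 fold change of -0.03 ± 0.13.

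Gda encodes guanine deaminase, an enzyme of purine breakdown. It was at 43.5, 18.8, 57.2 and 51.5 CPM in iKO and 119, 162, 170.1 and 141 CPM in control, with no overlap. It fell by 1.75 ± 0.28 (log2 ± SE; edgeR, adjusted p = 0.0414). Members held 0.346 to 1.45 Gda UMIs per cell in iKO and 2.17 to 3.34 in control, and T cells at most 0.722. Mt2, a metallothionein that binds zinc and copper, was at 0, 0, 7.15 and 5.72 CPM in iKO and 35.8, 46.4, 32.8 and 34 CPM in control (log2 fold change -2.93 ± 0.43; edgeR, adjusted p = 0.0334). Those values rest on 0, 0, 4 and 6 counts against 19, 45, 39 and 48, found in 4 of 105 iKO and 38 of 207 control members. T cells held 8.27 to 83.6 CPM of Mt2 in iKO and 24.8 to 43.1 CPM in control, and B cells at most 9.87 CPM. Per cell, Mt2 was higher in members than in T cells of the same sample in all 4 control samples (0.609 to 0.957 against 0.306 to 0.478 UMIs). Leaving out iKO 4 or any one control sample ended the calls of Gda and Mt2 (adjusted p up to 0.207 and 0.158).

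Lyz2 and Ccl7 were also called lower, and both were also counted in T and B cells. Whether that was free RNA was not tested. Lyz2 encodes lysozyme, made in bulk by monocytes and macrophages. It was at 1408, 334, 439 and 465 CPM in iKO members and 1186, 738, 1036 and 1243 CPM in control members, and iKO 1 lay above every control sample. In the fit, which lacks iKO 1, it fell by 1.34 ± 0.19 (log2; edgeR, adjusted p = 0.0289), and with all 8 samples the log2 fold change was -0.70 (adjusted p = 0.551). Members held 6.15 to 25.9 Lyz2 UMIs per cell in iKO and 15.2 to 26.2 in control, against 8.86 to 15.9 and 6.25 to 20.4 per T cell. Sample by sample, members held more per cell than T cells in iKO 1 and in all control samples, and less in iKO 2 to 4. On the CPM scale control 4 was also below T cells, and B cells were above members in every sample. The Lyz2 call was lost in 6 of the 7 fits that left out a sample (edgeR, adjusted p up to 0.118). Ccl7, a monocyte-attracting chemokine, was at 58.1, 20.9, 17.9 and 17.2 CPM in iKO and 64.0, 132, 129 and 123 CPM in control (log2 fold change -2.62 ± 0.29; edgeR, adjusted p = 0.00567).

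T cells held 119, 125, 213 and 193 CPM of Ccl7 in iKO and 54.0, 73.0, 89.7 and 289 CPM in control. Members were thus below T cells in all iKO samples and in control 4, and above them in controls 1 to 3. B cells held 58.6 to 2481 CPM in iKO and 31.7 to 527 CPM in control, so the gene was uneven among cells that should lack it. In control samples a single cell held 25 of 34, 58 of 128, 104 of 153 and 131 of 174 of the members' Ccl7 counts. With a Cd209a threshold of 1 UMI the direction turned, to 0.70 on the log2 scale (edgeR, adjusted p = 0.832). Gzmb, a protease of cytotoxic lymphocytes, rose by 2.19 ± 0.31 (log2; edgeR, adjusted p = 0.0289) from 4.95 to 6.73 CPM in control members to 18.1, 31.3, 21.4 and 28.6 CPM in iKO members. B cells (Cd79a of at least 2 UMIs and no Cd3e), which should lack it, held 38.2 to 52.1 CPM in iKO and 11.2 to 16.0 CPM in control, and T cells 609.7 to 2633 CPM and 319 to 724 CPM. On the CPM scale members were below B cells in every sample, while per cell they held 0.333 to 0.714 UMIs against 0.228 to 0.357 in iKO and 0.103 to 0.128 against 0.0492 to 0.0909 in control. The Gzmb call was lost in 6 of the 7 fits that left out a sample (adjusted p up to 0.216), and that of Ccl7 without iKO 4 (0.0990).

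Of the T cell markers, 3 of 7 were tested in members and none was called, and their list summed to 57.2 to 76.2 CPM in iKO and 31.0 to 51.6 CPM in control. Cd3e was at 0 by the rule. The part of T cell RNA in the Gzmb result was not tested. Markers of other cells were near 0: over their lists, B cell markers summed to at most 15.5 CPM, NK cell markers to 6.26 CPM and melanoma markers to 10.4 CPM in any sample, and fibroblast markers to 0. Neutrophil markers summed to 58.1 to 218 CPM in iKO and 207 to 211 CPM in control.

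Rps10 and Rpl24 encode ribosomal proteins and have near-identical copies elsewhere in the genome, so their counts are uncertain. Rps10 was at 954 to 1197 CPM in iKO members and 1900.3 to 2049.9 CPM in control members and fell by 0.85 ± 0.08 (log2; edgeR, adjusted p = 0.00246). The same step appeared in every cell type looked at: T cells held 1428 to 1566 CPM against 2589 to 2806 CPM, and B cells 1533 to 1641 CPM against 2450.1 to 3288 CPM. Rpl24 fell by 0.53 ± 0.08 (edgeR, adjusted p = 0.0414), a call lost whichever sample was left out (up to 0.180), and was at 1549 to 1617 CPM against 1979 to 2128 CPM in T cells. Both differed between the pools in lymphocytes as well as in members.

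Macrophage markers differed between members of the samples without a call. Of 9 markers, 8 were tested, none was called (edgeR), and 7 had log2 fold changes below 0, with a median of -1.92. They summed to 198 to 620.5 CPM in iKO and 280.5 to 1776 CPM in control. The 1 above 0 was Fcgr1, also interferon-induced, which made up most of the sum in iKO 1 and 2. With a Cd209a threshold of 1 UMI the list's median was -0.26, with 2 of 8 above 0. Apoe, a lipid carrier, was at 14.5, 12.5, 3.57 and 16.2 CPM in iKO and 30.1, 285, 367 and 80.7 CPM in control, apart but not called (edgeR, adjusted p = 0.172). T cells held 27.1 to 142 CPM of Apoe in iKO and 218 to 349.5 CPM in control, above the members in every sample but controls 2 and 3. At least 10 C1q UMIs were present in 2 of 105 iKO and 14 of 207 control members. Mertk, a defining marker, was too low for the filter. The part of macrophages in the decreases above was not tested. The fit of members without macrophage UMIs cannot decide it. C1qa was found in a like share of T cells, and only 2 iKO samples were left in that fit.

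Genes of alternative activation and tissue remodelling had one direction. All 11 tested had log2 fold changes below 0, with a median of -1.08, and none was called (edgeR). In 4 of them all 8 samples were apart and lower in iKO, against 3.19% of tested genes. Fn1, which encodes fibronectin, was at 10.9, 12.5, 3.57 and 5.72 CPM in iKO and 48.9, 29.9, 124 and 203 CPM in control. Trem2, a lipid-sensing receptor of macrophages, was at 3.63, 2.09, 5.36 and 0 CPM against 13.2, 26.8, 19.4 and 31.1 CPM, and Vegfa, an angiogenic factor, at 3.63, 4.17, 7.15 and 3.81 CPM against 15.1, 21.7, 36.2 and 93.4 CPM. Their adjusted p-values were 0.150, 0.148 and 0.230 (edgeR). In members without macrophage UMIs (2 iKO and 4 control samples) the list's median was -1.39 over 10 tested genes, 1 of them above 0. Levels of these genes in lymphocytes were not compared.

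**Figure D4:**
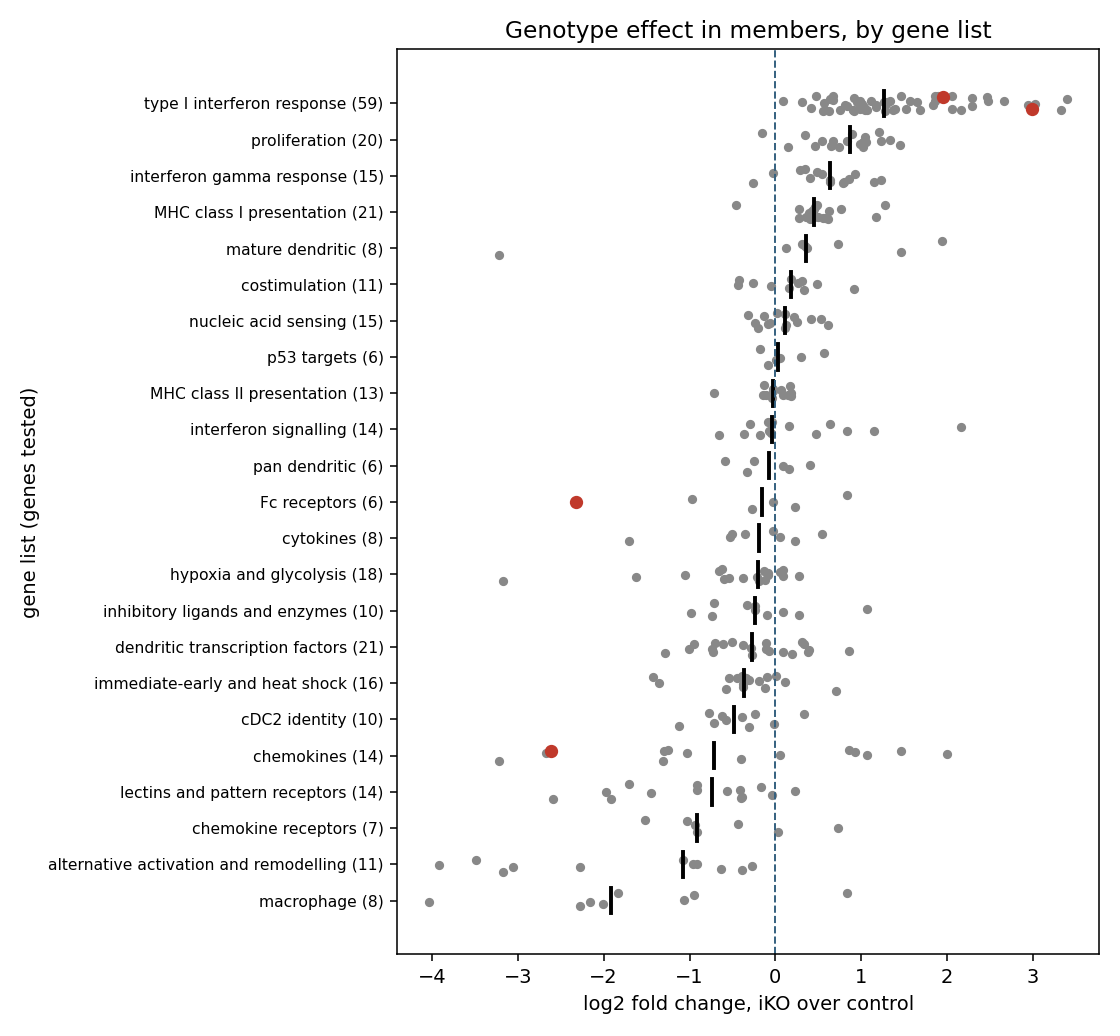
Log2 fold change in members (iKO over control, 3 against 4 samples) of each tested gene, by gene list, for lists with at least 6 tested genes; black bars are list medians, red points are called genes and the dashed line is the median of all tested genes. Every gene of the type I interferon list lies above 0 and every gene of the remodelling list below it.

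Genes that define type 2 dendritic cells were mostly lower without passing the test. Of 10 tested, none was called (edgeR), 9 were below 0, and the median was -0.48. Clec10a was at 185, 371, 598 and 514 CPM in iKO and 578, 390.2, 539.6 and 504 CPM in control, with iKO 1 and 2 below all control samples and iKO 3 above them. Mgl2 was at 47.2, 20.9, 689.5 and 360.4 CPM against 419.8, 935, 705 and 1036 CPM. In iKO 1 it was found in 1 of 15 members, and in iKO 2 in 7 of 26, against 120 of 207 control members. Kmo was the exception, at 136 to 177 CPM in iKO and 109 to 154 CPM in control (log2 fold change 0.34 ± 0.17; edgeR, adjusted p = 0.617).

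The 2 iKO samples low in Mgl2 were those high in interferon-induced RNA and in the sum of the monocyte markers, though not in each marker. Ly6c2, a surface protein of inflammatory monocytes that interferon also raises, was at 1136, 365, 180.4 and 112 CPM in iKO members and 124, 27.9, 44.6 and 63.7 CPM in control members. Of 5 monocyte markers, 4 were tested, none was called (edgeR), and 2 were above 0, with a median of -0.95. They summed to 4489, 3156, 934 and 1142 CPM in iKO and 1387, 623, 983 and 860.3 CPM in control. Vcan, the marker that defines the monocyte gate, was at 14.5, 0, 10.7 and 1.91 CPM in iKO members and 8.26 to 60.6 CPM in control members. Their part in the low Mgl2 of iKO 1 and 2 was not tested.

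Antigen presentation by MHC class II comes first among the functions of these cells. Of 13 tested genes, none was called (edgeR), and the median was -0.02. H2-Ab1, a class II chain, was at 7904, 10104, 11254 and 10988 CPM in iKO and 9254, 9412, 9672 and 9991 CPM in control, with iKO 1 the lowest of all. Cd74, the invariant chain, was at 20409 CPM in iKO 1 and 24971 to 27673 CPM in iKO 2 to 4, against 22924 to 24394 CPM in control. In both genes the samples iKO 2 to 4 lay above every control sample and iKO 1 below.

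MHC class I genes present peptides to CD8 T cells. Of 21 tested, none was called (edgeR), 20 were above 0, and the median was 0.45; without iKO 2 it was 0.09, with 16 above 0. In 4 the 8 samples were apart and higher in iKO (2.68% of all tested genes) and in 1 lower. H2-K1, a classical class I heavy chain, was at 1651, 2172, 1477 and 1510.0 CPM in iKO and 1472, 1109.6, 928 and 1031 CPM in control. H2-Q7, a nonclassical class I gene with close copies, was at 265, 292, 175 and 164 CPM against 156, 85.7, 49.7 and 93.4 CPM. For H2-K1 and H2-Q7 the groups were apart, narrowly at control 1 (edgeR, adjusted p = 0.310 and 0.305).

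No gene of maturation or costimulation was called (edgeR). Of 11 costimulatory genes, 7 were above 0, with a median of 0.18. Cd40, which receives help from CD4 T cells, was at 181, 175, 8.93 and 46.7 CPM in iKO and 35.8, 44.4, 38.7 and 38.2 CPM in control. Cd86 was at 272, 307, 130.4 and 116 CPM against 122, 142, 149.9 and 166 CPM. In both, iKO 1 and 2 were above all control samples. Of 8 tested mature dendritic genes, 7 were above 0, with a median of 0.36. The 1 below 0 was Ccl17, a chemokine of type 2 dendritic cells that attracts CCR4-bearing T cells. It was found in 4 of 105 iKO and 45 of 207 control members, at 0, 0, 10.7 and 66.7 CPM against 1.88, 137, 402 and 594 CPM (edgeR, adjusted p = 0.375). A single cell held 61 of the 70 Ccl17 counts in iKO 4. In controls 2 to 4 a single cell held 51 of 133, 339 of 478 and 532 of 840.

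Other chemokines and cytokines were mixed. Among 14 chemokines 1 was called lower (Ccl7), with a median of -0.71. Ccl6 was at 79.8, 121, 118 and 223 CPM in iKO and 363, 239, 388 and 565 CPM in control, and Ccl9 at 145, 48.0, 85.7 and 135 CPM against 156, 187, 223 and 192 CPM; in both all 8 samples were apart. Ccl5 was apart in the other direction, at 53.6 to 203 CPM against 24.4 to 48.9 CPM. None of the 3 passed (edgeR, adjusted p = 0.209, 0.272 and 0.313). Il1b, the most abundant cytokine tested, was at 2177 to 3596 CPM in iKO and 2039 to 3104 CPM in control. None of 8 cytokines was called (edgeR).

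No transcription factor of the lineage was called (edgeR). Of 21 tested, 7 were above 0, with a median of -0.28. Irf4, needed for type 2 dendritic cell function, was at 14.5 to 38.1 CPM in iKO and 18.4 to 35.1 CPM in control. Irf8, which drives type 1 dendritic cells and is raised by interferons, was at 185, 148, 161 and 62.9 CPM against 56.5, 45.4, 89.2 and 74.3 CPM. Id2, a regulator of dendritic cell development, was at 50.8, 189.8, 180.4 and 182 CPM against 218, 333, 273 and 304 CPM, apart and lower in iKO (edgeR, adjusted p = 0.272). Zeb2, which favours the type 2 and monocyte lineages, was at 269, 173, 222 and 183 CPM against 239, 372, 319 and 350.2 CPM, overlapping through iKO 1.

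Mki67, a marker of dividing cells, was detected in 26 of 105 iKO and 48 of 207 control members, or 15.2% and 7.92% after thinning, against 3.05% and 2.93% of thinned monocytes. Of 20 proliferation genes, 19 were above 0 and none was called (edgeR), with a median of 0.87. Their sum was 827, 154, 1484 and 1302 CPM in iKO and 1039, 1049.7, 289.6 and 325 CPM in control, so the groups overlapped widely. The lowest sample was iKO 2 and the highest iKO 3.

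The genotype effect in members was then compared with that in 3 other myeloid gates of the same samples. These were type 1 dendritic cells (Xcr1 and Clec9a of at least 2 UMIs together, 325 cells), mature dendritic cells (419 cells) and Vcan-positive monocytes (3529 cells). The difference of the 2 effects was tested with the sample as a block. Against type 1 dendritic cells it passed the threshold in 0 of 7813 genes (edgeR; 376 at an unadjusted p under 0.05, or 4.81%, and 4 called by DESeq2). Against mature dendritic cells it passed in 0 of 7658 (edgeR; 404 unadjusted, or 5.28%, and 1 by DESeq2). Against monocytes it passed in 8 of 9381 (0.0853%; 10.6% unadjusted). A difference that misses the threshold does not show that the gates respond alike, since members were few.

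The type I interferon response list had a positive median in each gate. Its median log2 fold change was 1.26 in members, 1.61 in type 1 dendritic cells, 1.33 in mature dendritic cells and 1.84 in monocytes, with 2 of 59, 27 of 56, 3 of 53 and 60 of 62 tested genes called higher (edgeR). Over all genes, 0.138%, 1.62%, 0.203% and 9.90% were called, so the list's counts are not on a common scale between gates. No list gene's difference between members and another gate passed the test (smallest adjusted p = 0.0522, against monocytes). Irf7 rose by 3.22 ± 0.41 in monocytes and by 3.06 ± 0.49 in type 1 dendritic cells (edgeR, adjusted p = 0.00405 and 0.0172). Samples iKO 1 and 2 were the highest in each gate: in monocytes the list summed to 42026 and 42264 CPM there, 22916 and 23145 CPM in iKO 3 and 4, and 7759 to 13794 CPM in control.

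**Figure D5:**
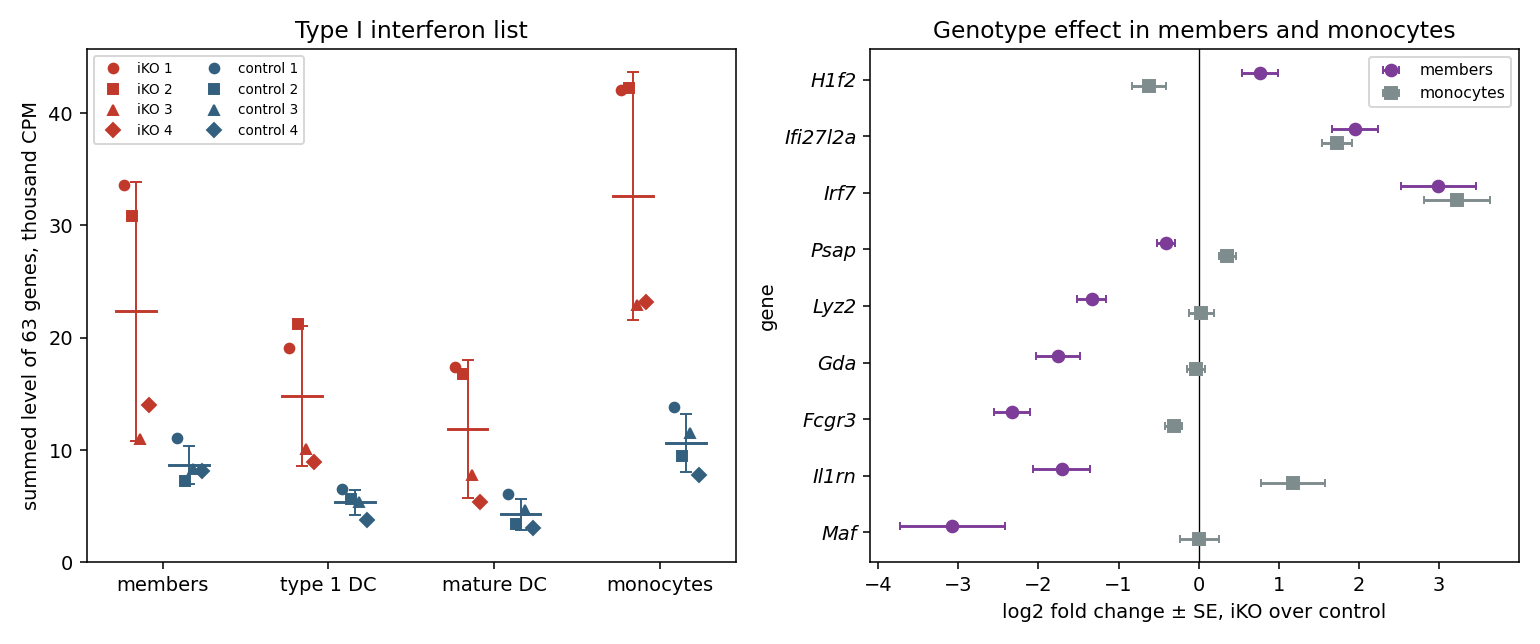
Left, summed level of the type I interferon response list (63 genes, in units of 1000 CPM) in 4 gates, by sample, with mean and SD of 4 samples; right, log2 fold change ± SE (iKO over control) in members and monocytes for 7 genes whose effect differed between them, with Irf7 and Ifi27l2a for comparison. In members iKO 3 (11002 CPM) lies below control 1 (11048 CPM), while of the other gates only mature dendritic cells overlap (iKO 4 at 5408 CPM, control 1 at 6086 CPM).

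Fcgr3, Lyz2 and Gda, called lower in members, were not called in monocytes. Fcgr3 was at 424 to 494 CPM in iKO monocytes and 503 to 623 CPM in control monocytes, an effect of -0.31 ± 0.11. The difference between the effects in members and monocytes was -1.93 ± 0.24 (log2 ± SE; edgeR, adjusted p = 0.00606). Lyz2 was at 10497 to 13093 CPM in iKO monocytes and 8732 to 15217 CPM in control, and the difference was -1.42 ± 0.14 (adjusted p = 0.000829). Gda was at 404 to 464 CPM against 384 to 527 CPM, with a difference of -1.65 ± 0.27 (adjusted p = 0.0430), a call lost in 5 of the 7 fits that left out a sample (up to 0.121). With all 8 samples the differences were -1.63 for Fcgr3 and -0.95 for Lyz2 and no longer passed (edgeR, adjusted p = 0.0521 and 0.271). Levels of all 3 were higher in monocytes than in members. In mature dendritic cells all 3 also had effects below 0, none called (edgeR). They were -1.45 ± 0.49 for Fcgr3, -0.96 ± 0.56 for Lyz2 and -1.29 ± 0.26 for Gda (log2 ± SE). The effects in type 1 dendritic cells were -0.33 ± 0.31, -0.95 ± 0.34 and -0.84 ± 0.31 in the same order, none called.

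Il1rn, Psap, Maf and H1f2 also differed in their effect between members and monocytes. The calls of Fcgr3 and Lyz2 were kept when any 1 of the 7 fitted samples was left out. Il1rn, the interleukin-1 receptor antagonist, was at 293 to 807 CPM against 183 to 354 CPM in monocytes, and at 102, 16.7, 8.93 and 16.2 CPM against 47.1, 50.6, 26.9 and 63 CPM in members (difference -2.49 ± 0.35; edgeR, adjusted p = 0.0133).

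Maf, a transcription factor of macrophages, was at 79.8, 2.09, 1.79 and 7.63 CPM in iKO members and 13.2, 51.6, 24.4 and 64.4 CPM in control members. It was level in monocytes (0.01 ± 0.24), and the difference was -3.02 ± 0.42 (edgeR, adjusted p = 0.0133). In iKO 1, outside this fit, Maf was the highest of all. Psap, a lysosomal protein precursor, and H1f2, a linker histone, gave differences of -0.70 ± 0.11 and 1.36 ± 0.23 (adjusted p = 0.0403 and 0.0430), and both calls were lost in 6 of the 7 fits that left out a sample. H1f2 was the only one of the 8 genes past the threshold whose effect was more positive in members.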

How the data were processed

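Live CD45-positive tumour cells of 8 hashtagged samples were profiled by 10x 3′ single-cell RNA sequencing. The values analysed are raw UMI counts, as deposited, for every gene in each barcode; they were made with Cell Ranger 7.1.0 on GRCm39 per the submitters' processing notes. How barcodes were assigned to hashtags, and whether intronic reads were counted, is not given in the sources used here. Cells with at least 300 genes and at most 10% mitochondrial UMIs were kept, which removed 1241 of 23731 barcodes. Doublets were scored with Scrublet (scanpy 1.11.5). They were kept, and 1 member scored over 0.25.

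UMIs were summed per sample over members and over each comparison gate, for sums of at least 20 cells. The sums were tested in R 4.3.3 with edgeR 4.0.16 (TMM, filterByExpr, quasi-likelihood test, Benjamini-Hochberg adjustment over all genes tested, threshold 0.05), without a replicate block. CPM scale each sum to a common total. On counts simulated for the comparison of members (7233 genes, 200 changed 4-fold), 98.5% were recovered and 2.48% of calls were false. For the difference from type 1 dendritic cells (7816 genes, 200 changed 4-fold), 91.5% were recovered and 5.67% of calls were false. The changed genes had a mean of at least 20 CPM and the same change in the members of every iKO sample. The split among the real iKO samples was not simulated, so these shares do not apply to genes that show it. Pairs of samples within a genotype had a chi-square of 2.16 to 7.06 per degree of freedom over genes, where sampling noise gives about 1, so no library was a duplicate. Alternatives were DESeq2 1.42.0 (its size factors and its Wald test), no low-count filter, other Cd209a thresholds, thinning, doublet removal, a replicate block and leaving out each sample.

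Genes named are the rule genes and markers, called genes with a mean of at least 20 CPM and no overlap between genotypes, in each list up to 3 called and the 3 most abundant genes, those leading each difference between gates, and single list genes whose role is described. Lyz2, Rps10 and Rpl24 complete the 10 called genes; they, H1f2, and the other interferon-induced, macrophage, remodelling and class I genes whose values are given were named after their values were seen. The members and all gene lists were chosen with earlier results of these data known. Of the list genes, 3 were not analysed here under the names searched. Sequences are from RefSeq's GRCm38.p6 table. Intervals and limits for a count of 0 cover counting error only. Of the 8 genes whose effect differed from monocytes, 1 is not reported here.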

Additional observations from a re-analysis of the deposited data

Results flagged for a closer look

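In each group of 4 samples the 10 called genes, the share of members and their median UMIs were screened for a lone sample far from the others (Dixon's criterion at 95%); 24 groups were screened and 4 gave one, where chance gives about 1 in 20. Lyz2 in iKO stood out by iKO 1, at 1408 CPM. Ccl7 stood out by iKO 1, at 58.1 CPM, and by control 1, at 64.0 CPM, which brings the groups close together. Rps10 stood out in control by control 4, at 1900.3 CPM, a narrow gap in a tight group.

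For the genes below the genotype effect differed between members and monocytes by edgeR's quasi-likelihood test of the difference itself (log2, members minus monocytes). It was more negative in members for Fcgr3 (-1.93), Il1rn (-2.49), Lyz2 (-1.42), Psap (-0.70), Maf (-3.02) and Gda (-1.65), and more positive for H1f2 (1.36). For Il1rn and Maf the calls were lost without iKO 2 or iKO 3.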

How the results depend on the processing

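The count of 10 called genes became 50 with DESeq2's Wald test, 156 with no low-count filter, 1 with a Cd209a threshold of 3 UMIs or of 1 UMI, and 2 to 18 when 1 sample was left out (2 without iKO 4, 18 without iKO 3, and 3 or 4 without a control sample). The sample numbers do not pair the samples (correlations of deviations -0.227, -0.0506 and -0.176 for numbers 2 to 4, and 0 iKO samples correlated best with their own number); with the replicate block 24 genes were called. Chosen after seeing the data, with a minimum of 10 cells: 6 genes in members found after thinning, 4 in members without macrophage UMIs, 2 with a threshold of 3. At a threshold of 1 UMI, Ccl7 turned to 0.70. Differences from type 1 dendritic cells went from 0 genes to 4 (DESeq2), 105 (no filter), 1 (minimum of 10) and 0 to 3 (leaving out a sample); from mature dendritic cells, from 0 to 1, 56 and, leaving out a sample, 0 to 1; from monocytes, from 8 to 61 (of 650 genes to which DESeq2 gave an adjusted p), 257, 4 and 4 to 29 (29 without control 1, 4 without iKO 3, 5 without iKO 2 or 4). The share difference of -1.24 percentage points was -1.74 and -0.98 after thinning to 5000 and 3000 UMIs, -1.19 with a threshold of 3 and -17.8 among dendritic cells, each with an exact permutation p of 0.0286. With a threshold of 1 UMI it was -1.76 and with doublets removed -1.27, each with an exact permutation p of 0.0857. Leaving out a sample gave -1.52 to -1.02, with exact permutation p of 0.0571 to 0.171 (the smallest p for 3 against 4 is 0.0571). Size factors of DESeq2 in edgeR and removal of doublets left each of these counts within 1.5 times. Doublet removal could not test the count of 10 called genes, since the only member removed was in iKO 1, outside that fit. In the differences between gates it changed only the other gate. Members that also lack Ccr7, C1qa, Mki67, S100a8 and Ncr1, and thinned members, had too few samples with 20 cells and were not run at that minimum. The iKO samples held 15 to 42 members each, which limits the precision of single genes.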
